A study of Rattus norvegicus with 64 samples.

Results

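The genes described here encode the subunits of AMPA and NMDA receptors, 10 of the 32551 rat genes in the deposited count tables. They were taken by gene symbol: 4 AMPA receptor subunits (Gria1, Gria2, Gria3, Gria4) and 6 NMDA receptor subunits (Grin1, Grin2a, Grin2b, Grin2c, Grin2d, Grin3a). RNA-seq had been made from hippocampus and cortex of 32 ApoE4 or ApoE3 rats, giving 64 libraries. The treated rats of each genotype received weekly doses of doxorubicin, an anthracycline chemotherapy drug, at 2 mg/kg over 4 weeks from the age of 5 weeks, and their controls received PBS. Brains were taken 5 to 6 weeks after the final dose. The 8 groups were ApoE4 doxorubicin, ApoE4 PBS, ApoE3 doxorubicin and ApoE3 PBS rats in hippocampus, and the same 4 groups of rats in cortex. Each group held 8 libraries, from 4 females and 4 males, and both regions came from the same rats. Rat numbers ran in blocks by genotype, sex and treatment, so handling that followed those blocks cannot be told apart from them.

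AMPA and NMDA receptors are ion channels opened by glutamate, the main excitatory transmitter of the brain, and each is assembled from several subunits. AMPA receptors carry most of the fast excitatory current, and their subunit make-up sets calcium entry and gating speed. NMDA receptors need glutamate together with glycine or D-serine and a depolarised membrane, admit calcium, and are needed for many forms of synaptic plasticity in the hippocampus and cortex.

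Library totals ran between 10836181 and 20397553 counts, spike-in reads included. All 10 subunits passed the filter on low counts in every comparison. Counts per gene and library ran between 72 for Grin3a, the lowest of the members, and 16364 for Gria2, the highest. Tissue labels were checked on markers fixed in a list: the summed level of 6 hippocampal neuron markers was 459 to 723 CPM (counts scaled to library size with TMM factors) in hippocampal libraries and 163 to 328 CPM in cortical libraries. The summed level of 6 cortical neuron markers was 124 to 195 CPM in hippocampal libraries and 472 to 617 CPM in cortical libraries. Meningeal fibroblast markers (8 of 10 measured) summed to as much as 1527 CPM in hippocampal libraries and 472 CPM in cortical libraries. Choroid plexus markers (7 of 8 measured) summed to between 5.58 and 12736 CPM in hippocampal libraries and between 2.93 and 847 CPM in cortical libraries. In whole tissue, fewer cells of a type and less RNA per cell cannot be told apart.

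**Figure D1:**
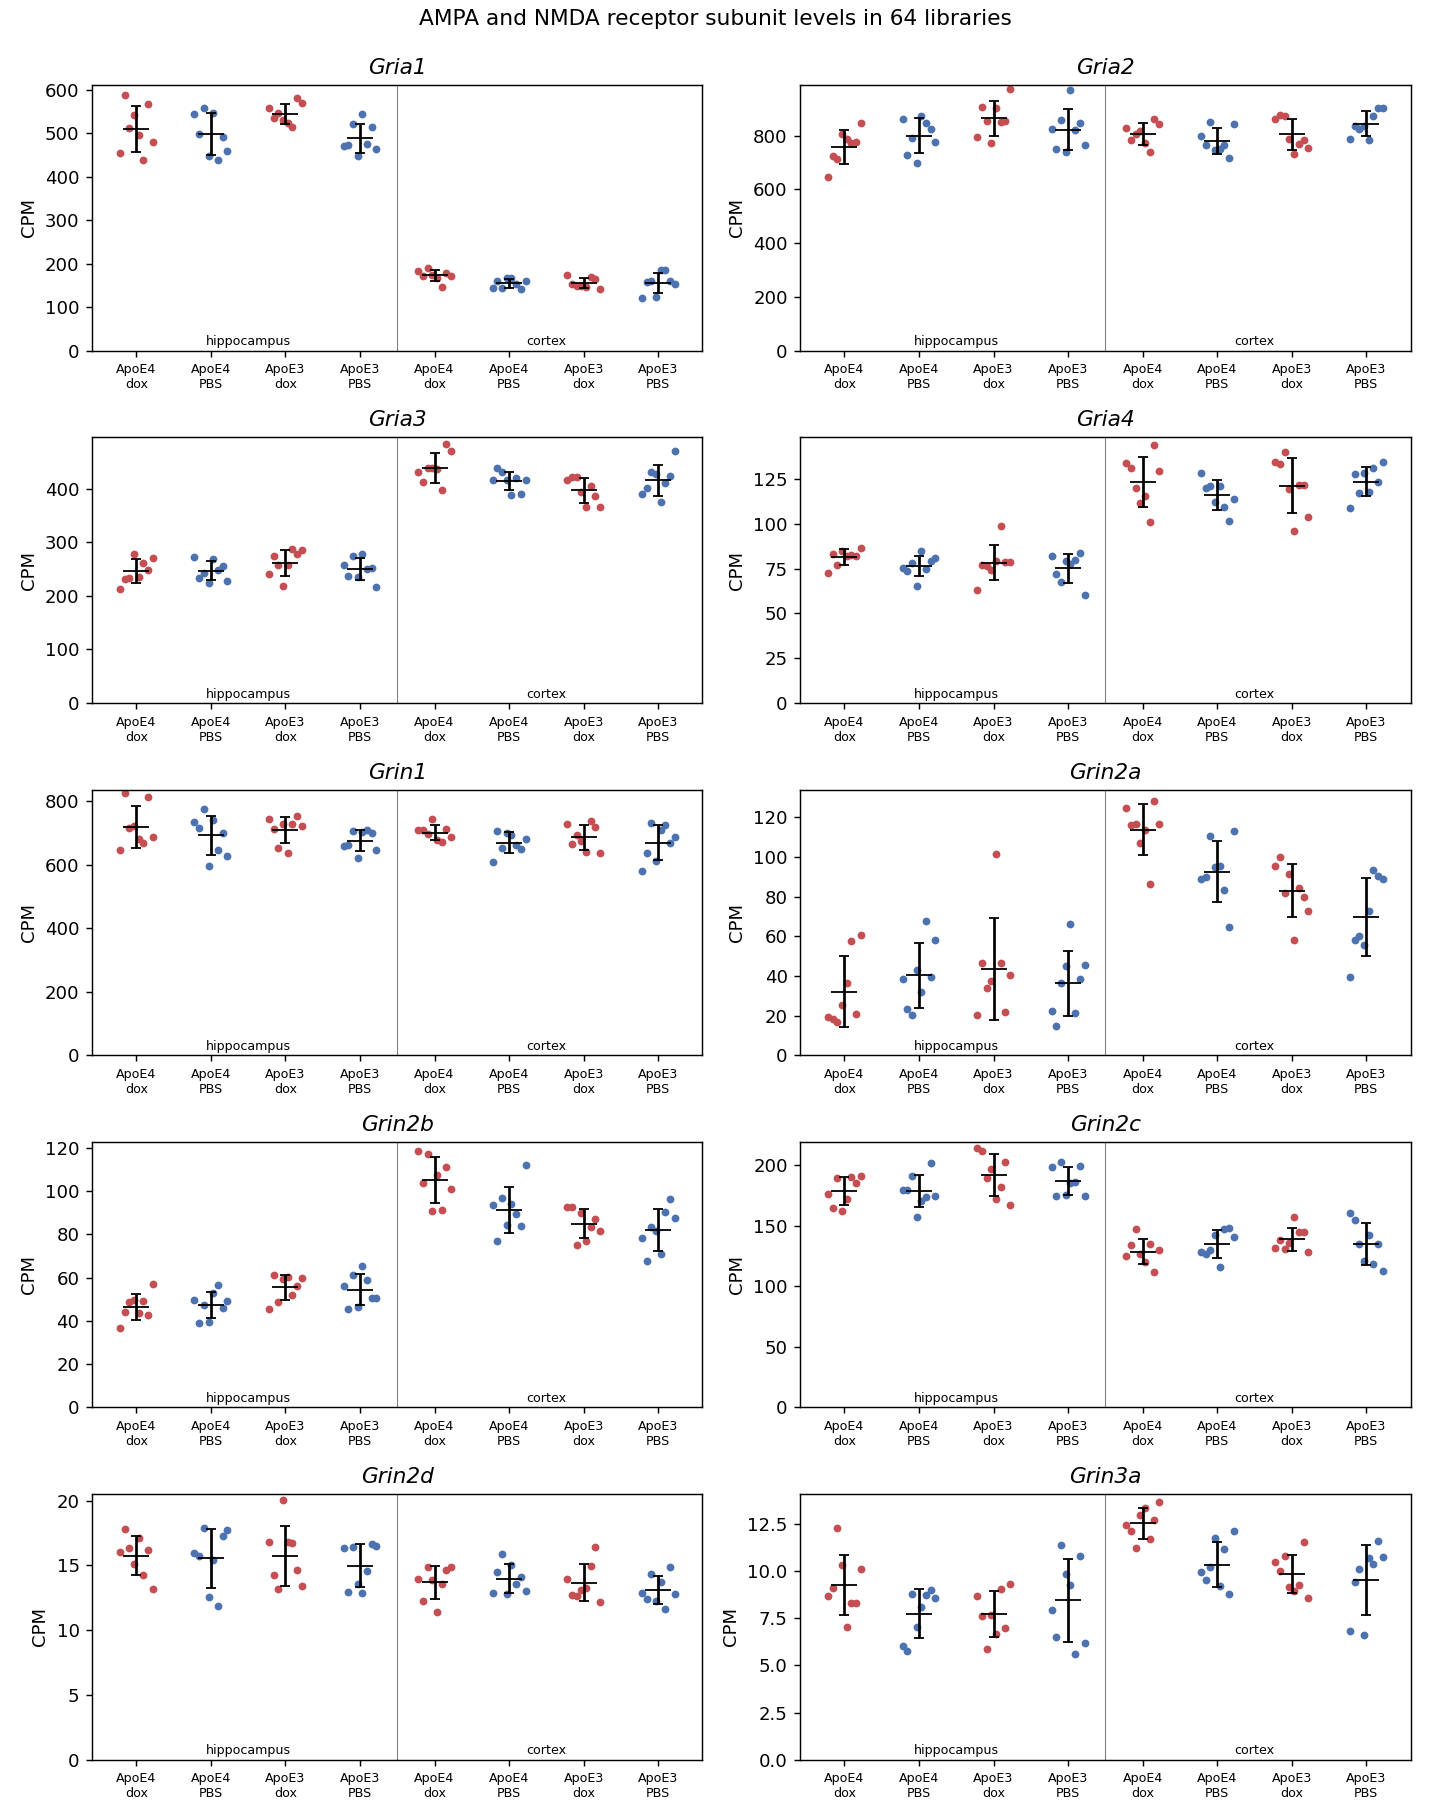
Level of each subunit (CPM, TMM scaled, vertical axis from 0) in all 64 libraries, by region, genotype and treatment on the horizontal axis, with doxorubicin in red and PBS in blue. Points are libraries, the horizontal stroke is the group mean and the bar its SD (n = 8). Gria1 and Grin2c sit higher in hippocampus, and Gria3, Gria4, Grin2a and Grin2b sit higher in cortex.

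Region set the largest differences among the subunits. In PBS rats, edgeR's quasi-likelihood test with Benjamini-Hochberg adjustment called 7 of the 10 subunits between hippocampus and cortex in ApoE4 rats, 2 higher and 5 lower in hippocampus, against 49.2% of the 14835 genes tested. In ApoE3 rats it called 6 of 10, 2 higher and 4 lower, against 49.3% of 14981 genes. A difference by region was thus common among all genes. Hippocampal and cortical libraries did not overlap for 5 of 10 subunits in each genotype. The share of all genes without such overlap is not given here, so this describes the subunits alone. The median log2 difference was -0.20 over the 10 subunits and 0.01 over all genes in ApoE4 rats, and -0.12 and -0.002 in ApoE3 rats.

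Gria1 encodes GluA1, the AMPA subunit that carries activity-dependent receptor insertion at synapses. In ApoE4 PBS rats it had 438, 495 and 559 CPM (lowest, median, highest of 8) in hippocampus and 142, 157 and 167 CPM in cortex. In ApoE3 PBS rats the values were 449, 474 and 543 CPM in hippocampus and 120, 159 and 185 CPM in cortex. Every hippocampal library was above every cortical one in both genotypes. The log2 difference was 1.68 (SE 0.06, adjusted p = 8.05e-14) in ApoE4 rats and 1.64 (SE 0.07, adjusted p = 1.36e-13) in ApoE3 rats, a fold of 3.20 and 3.13.

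Gria2 encodes GluA2, whose RNA-edited form makes AMPA receptors nearly impermeable to calcium. It had 697, 807 and 874 CPM in hippocampus and 716, 764 and 852 CPM in cortex of ApoE4 PBS rats, and 740, 822 and 971 CPM in hippocampus and 785, 836 and 904 CPM in cortex of ApoE3 PBS rats. The groups overlapped. The log2 difference was 0.03 (SE 0.06, adjusted p = 0.736) in ApoE4 rats and -0.05 (SE 0.05, adjusted p = 0.374) in ApoE3 rats, and did not pass the test.

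Gria3 encodes GluA3. Gria4 encodes GluA4, a fast-gating subunit prominent in many interneurons. Gria3 had 225, 246 and 272 CPM in hippocampus and 388, 417 and 438 CPM in cortex of ApoE4 PBS rats, and 216, 252 and 279 CPM in hippocampus and 376, 417 and 471 CPM in cortex of ApoE3 PBS rats. Gria4 had 65.6, 76.9 and 84.7 CPM in hippocampus and 102, 117 and 128 CPM in cortex of ApoE4 PBS rats, and 60.5, 78.4 and 83.8 CPM in hippocampus and 109, 126 and 134 CPM in cortex of ApoE3 PBS rats. The groups did not overlap for either gene in either genotype. Gria3 was lower in hippocampus by a log2 difference of -0.76 (SE 0.05, adjusted p = 1.17e-10) in ApoE4 and -0.75 (SE 0.05, adjusted p = 4.07e-10) in ApoE3 rats. Gria4 was lower by -0.61 (SE 0.05, adjusted p = 2.37e-08) in ApoE4 and -0.73 (SE 0.06, adjusted p = 5.91e-09) in ApoE3 rats. Inhibitory neuron markers (7 of 8 measured) summed to 481 to 577 CPM in hippocampus and 584 to 729 CPM in cortex of ApoE4 PBS rats, and to 522 to 625 CPM in hippocampus and 594 to 752 CPM in cortex of ApoE3 PBS rats. Of these 7 markers, 4 were called lower in hippocampus in each genotype. Over all genes, 49.2% in ApoE4 and 49.3% in ApoE3 rats were called in either direction, with 3625 of 14835 and 3757 of 14981 lower. The part of the inhibitory neuron markers in the Gria4 difference was not tested.

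Among the NMDA subunits, Grin1 encodes GluN1, which every NMDA receptor needs, and it did not pass the test by region in either genotype. It had 597, 708 and 777 CPM in hippocampus and 608, 671 and 707 CPM in cortex of ApoE4 PBS rats, a log2 difference of 0.04 (SE 0.06, adjusted p = 0.616). In ApoE3 PBS rats it had 620, 682 and 711 CPM in hippocampus and 581, 679 and 732 CPM in cortex, a log2 difference of 0.00 (SE 0.04, adjusted p = 0.979).

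Grin2a encodes GluN2A, the GluN2 subunit whose expression increases after birth, and Grin2b encodes GluN2B, the one that prevails early and gives slower currents. Both were lower in hippocampus. Grin2a had 20.2, 39.1 and 67.5 CPM in hippocampus and 64.5, 92.4 and 113 CPM in cortex of ApoE4 PBS rats, and 14.9, 37.4 and 66.1 CPM in hippocampus and 39.7, 66.3 and 93.5 CPM in cortex of ApoE3 PBS rats. The ranges overlapped in both genotypes. The log2 difference was -1.25 (SE 0.19, adjusted p = 2.29e-05) in ApoE4 and -0.94 (SE 0.19, adjusted p = 0.000462) in ApoE3 rats. Grin2b had 39.1, 48.4 and 56.6 CPM in hippocampus and 76.8, 91.4 and 112 CPM in cortex of ApoE4 PBS rats, and 45.6, 53.3 and 65.3 CPM in hippocampus and 67.5, 82.5 and 96.3 CPM in cortex of ApoE3 PBS rats, with no overlap. Its log2 difference was -0.96 (SE 0.07, adjusted p = 3.04e-09) in ApoE4 and -0.61 (SE 0.08, adjusted p = 1.38e-06) in ApoE3 rats.

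Grin2c encodes GluN2C, best known from cerebellar granule cells and also found in astrocytes. It was higher in hippocampus, with 157, 177 and 202 CPM there and 116, 135 and 148 CPM in cortex of ApoE4 PBS rats, and 174, 186 and 203 CPM and 113, 135 and 161 CPM in ApoE3 PBS rats. No library overlapped. The log2 difference was 0.39 (SE 0.06, adjusted p = 9.41e-06) in ApoE4 and 0.46 (SE 0.06, adjusted p = 6.39e-06) in ApoE3 rats. Summed astrocyte markers (7 genes) were 3189 to 3898 CPM in hippocampus and 2338 to 2866 CPM in cortex of ApoE4 PBS rats, and 2916 to 3697 CPM and 1932 to 2559 CPM in ApoE3 PBS rats, and their part in the Grin2c difference was not tested.

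Grin2d encodes GluN2D, found early in development and in interneurons, and Grin3a encodes GluN3A, which binds glycine and lowers calcium entry. Grin2d had 11.9, 15.9 and 17.9 CPM in hippocampus and 12.8, 13.8 and 15.9 CPM in cortex of ApoE4 PBS rats, and 12.9, 15.5 and 16.7 CPM in hippocampus and 11.7, 12.9 and 14.9 CPM in cortex of ApoE3 PBS rats. The groups overlapped and it did not pass in either genotype (adjusted p = 0.207 in ApoE4 and 0.0727 in ApoE3 rats by edgeR). In ApoE3 rats it passed when hippocampal rat 41 or 56 or cortical rat 59 was left out, at a log2 difference of 0.20, 0.21 and 0.20, and with library size alone in place of TMM, at 0.20 (adjusted p = 0.0413). Grin3a had 5.75, 8.33 and 9.00 CPM in hippocampus and 8.78, 10.1 and 12.1 CPM in cortex of ApoE4 PBS rats, with overlap, and was lower by -0.43 (SE 0.10, adjusted p = 0.00171). In ApoE3 PBS rats Grin3a had 5.59, 8.59 and 11.4 CPM in hippocampus and 6.60, 10.2 and 11.6 CPM in cortex, a difference of -0.18 (SE 0.15, adjusted p = 0.353). Whether it differed between genotypes was not tested.

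**Figure D2:**
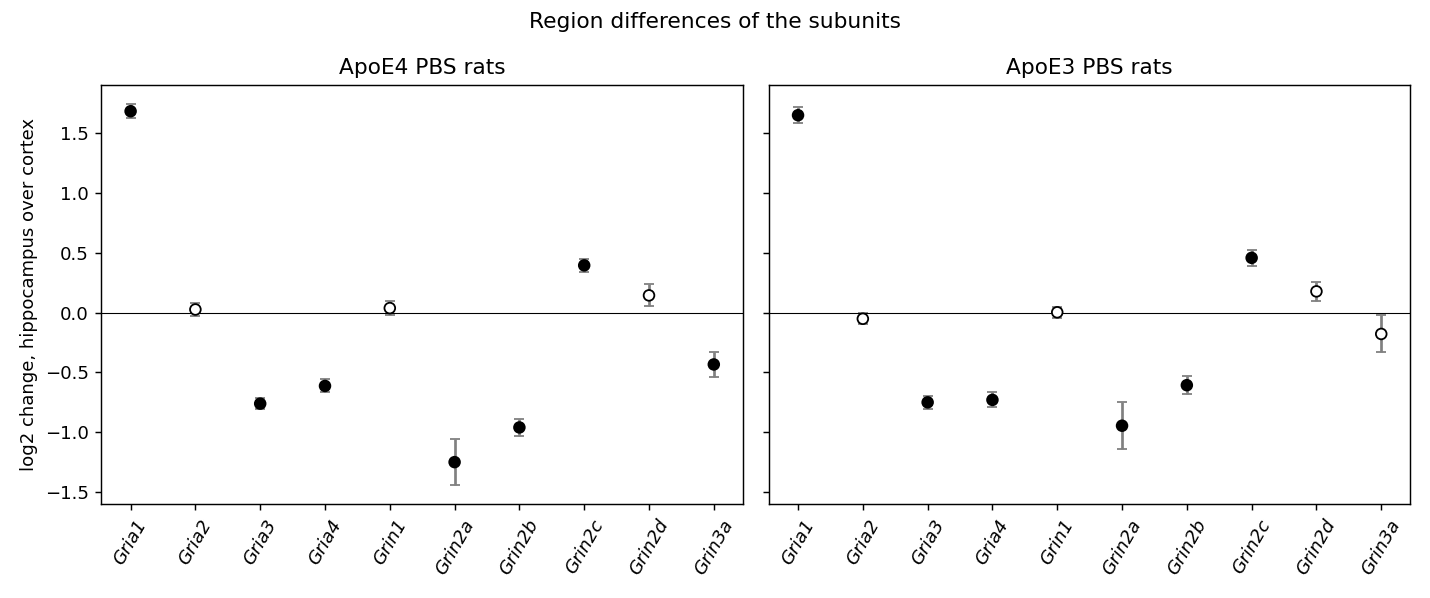
Log2 change of each subunit, hippocampus over cortex, in PBS rats of each genotype (8 libraries per region). Points are edgeR estimates, bars are 1 SE, and filled points passed an adjusted p of 0.05. Gria1 stands at 1.68 and 1.64, and Grin2a at -1.25 and -0.94.

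The RefSeq promoter table (GRCr8) held 5 of the 10 subunits, and of those Gria4 and Grin2c had called region differences of opposite sign. The 250 bases before the RefSeq start are shown for both so that the sequences can be compared, with CG dinucleotides in capitals. Gria4 lies on the minus strand at chr8:10319882-10320131 and Grin2c on the minus strand at chr10:101005139-101005388, and transcripts in these libraries may start elsewhere.
Gria4: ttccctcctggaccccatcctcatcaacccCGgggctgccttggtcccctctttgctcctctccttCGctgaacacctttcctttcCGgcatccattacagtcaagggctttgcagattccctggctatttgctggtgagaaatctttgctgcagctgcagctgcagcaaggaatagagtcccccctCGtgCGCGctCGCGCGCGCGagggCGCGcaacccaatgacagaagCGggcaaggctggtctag
Grin2c: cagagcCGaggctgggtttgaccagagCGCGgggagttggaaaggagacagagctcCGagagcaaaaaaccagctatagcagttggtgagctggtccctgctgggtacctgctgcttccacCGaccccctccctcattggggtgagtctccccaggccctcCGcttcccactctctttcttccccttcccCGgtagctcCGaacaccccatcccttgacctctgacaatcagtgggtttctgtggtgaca
Gria4 held 14 CG dinucleotides and Grin2c 8, against a median of 5 over all 33469 promoters. Grin3a, called lower in hippocampus of ApoE4 rats alone, held 16. Grin1 and Grin2d, not called by region in the main test, held 19 and 9. Whether CG number goes with region was not tested. Neither the Gria4 nor the Grin2c window held the letters GGGCGG (the GC box), TATAAA (the TATA box) or TGACGTCA (the cyclic AMP response element) on either strand. Those letters were present in 30.5%, 12.9% and 1.59% of all windows of the same length.

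The mix of subunits followed these levels. The shares below are of counts, which also depend on transcript length, so only the same subunit is compared between groups. Gria1 held 30.7% ± 1.90 of AMPA subunit counts in hippocampus and 10.6% ± 0.843 in cortex of ApoE4 PBS rats (SD, n = 8), and 29.9% ± 0.794 and 10.1% ± 1.49 in ApoE3 PBS rats. Gria3 held 15.2% ± 0.388 in hippocampus and 28.3% ± 0.902 in cortex of ApoE4 PBS rats. Over all 8 groups, the group means for Gria2 ran between 47.5% and 54.8%. Of NMDA subunit counts, Grin1 group means ran between 65.2% and 71.7%. Within the 4 GluN2 genes, Grin2c held 63.5% ± 4.81 in hippocampus and 40.7% ± 4.06 in cortex of ApoE4 PBS rats, and Grin2a 14.1% ± 5.01 and 27.7% ± 3.40 of the same counts.

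**Figure D3:**
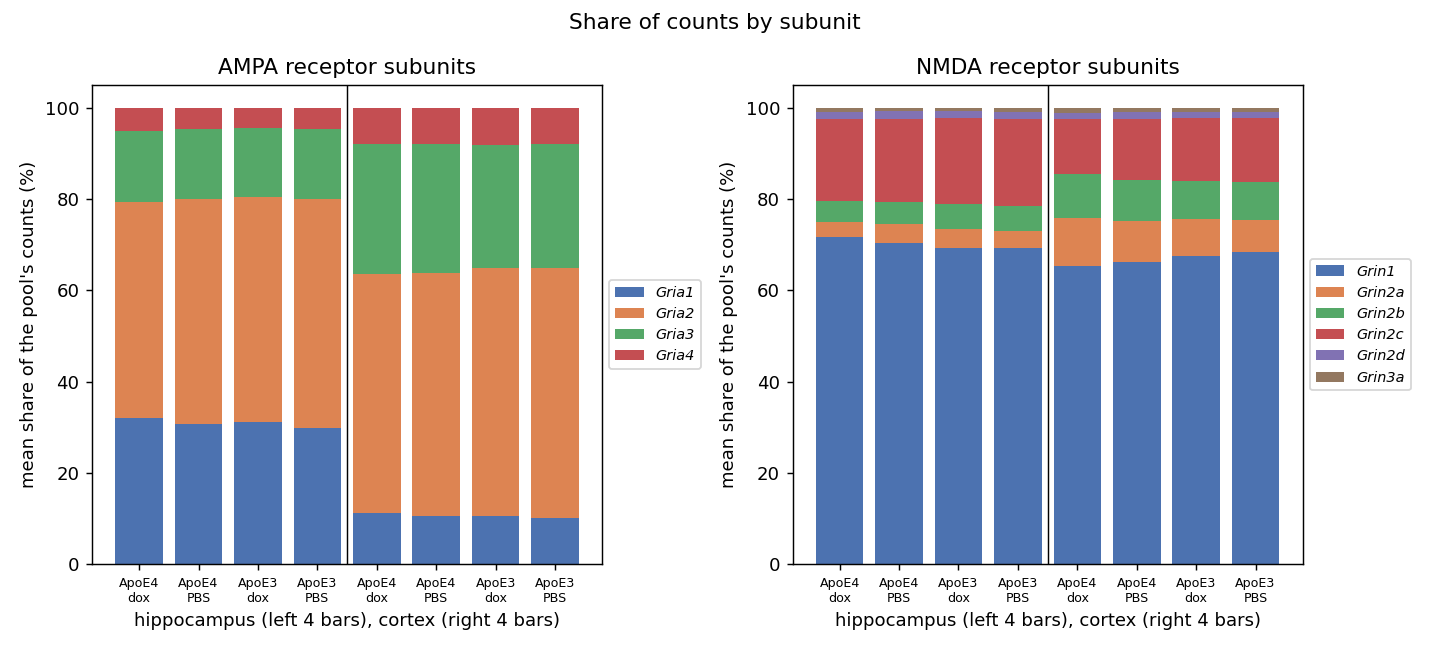
Mean share (%) of each subunit in the counts of its family, AMPA left and NMDA right, for the 8 groups (8 libraries each) on the horizontal axis, with hippocampus left of cortex. The Gria1 block covers 29.9% to 32.0% in hippocampus and 10.1% to 11.2% in cortex.

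The log2 ratio of Gria1 to Gria2 counts was -0.69 ± 0.14 in hippocampus and -2.34 ± 0.14 in cortex of ApoE4 PBS rats (SD, n = 8 each), a difference of 1.65. In ApoE3 PBS rats it was -0.75 ± 0.06 in hippocampus and -2.45 ± 0.23 in cortex, a difference of 1.71. A two-sided exact permutation test gave p = 0.000155 for both, the smallest that 8 against 8 can give, and 0.00124 after adjustment over 16 ratio tests. With signs changed within rats, the exact p was 0.00781, the smallest that 8 rats allow, and 0.0625 after adjustment. The log2 ratio of Grin2a to Grin2b was -0.34 ± 0.54 in hippocampus and 0.01 ± 0.20 in cortex of ApoE4 PBS rats (exact permutation p = 0.115, adjusted 0.264), and none of the 8 tests of that ratio passed.

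Other glutamate receptor genes were counted in the same region comparisons, in which 49.2% of all genes were called in ApoE4 and 49.3% in ApoE3 rats. Of 14 measured AMPA receptor auxiliary subunits, 6 were higher and 4 lower in hippocampus in each genotype, with a median log2 difference of 0.05 in ApoE4 and 0.04 in ApoE3 rats. In ApoE4 PBS rats, Shisa6 was higher by 3.76 (SE 0.11), the cornichon gene Cnih2 by 1.66 (SE 0.06) and Cacng8, which encodes the auxiliary protein TARP gamma-8, by 1.62 (SE 0.07). Cacng3, which encodes TARP gamma-3, was lower by -0.92 (SE 0.06). Of 23 postsynaptic density genes, 8 were higher and 10 lower in ApoE4 and 8 higher and 8 lower in ApoE3 rats. Of 7 metabotropic receptors, 1 was higher and 4 lower in each genotype. Of 8 other ionotropic receptor genes, 4 were higher and 2 lower in ApoE4 and 5 higher and 1 lower in ApoE3 rats. Grik4, a kainate receptor gene, was higher by 1.32 (SE 0.07) and Grik3, another, lower by -1.34 (SE 0.11) in ApoE4 rats.

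The doxorubicin comparisons asked whether subunit levels differed in treated rats weeks after the last dose. None of the 10 subunits passed edgeR's test in hippocampus or cortex of either genotype. The share of all genes called was 0.0% in each of the 4 comparisons. At an unadjusted p under 0.05, edgeR gave 0 of 10 subunits in ApoE4 hippocampus, 1 in ApoE3 hippocampus, 4 in ApoE4 cortex and 1 in ApoE3 cortex, against 7.38%, 10.3%, 8.82% and 9.25% of all genes. DESeq2 called 1 subunit, Gria1 in ApoE3 hippocampus, and 0, 153, 33 and 81 genes of all in the same order of comparisons. The doxorubicin and PBS libraries overlapped for every subunit in all 4 comparisons. The share of all genes with such overlap is not given here, so this describes the subunits alone. The log2 differences ran between -0.40 (Grin2a) and 0.25 (Grin3a) in ApoE4 hippocampus and between -0.13 (Grin3a) and 0.25 (Grin2a) in ApoE3 hippocampus. In cortex they ran between -0.08 (Grin2c) and 0.28 (Grin2a) in ApoE4 rats and between -0.06 (Gria2) and 0.29 (Grin2a) in ApoE3 rats.

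Gria1 in ApoE3 hippocampus came nearest. The doxorubicin libraries had 516, 524, 532, 536, 547, 558, 569 and 581 CPM, and the PBS libraries had 449, 463, 471, 473, 475, 514, 521 and 543 CPM. All 8 doxorubicin libraries were above the PBS median, and the groups overlapped through the 2 highest PBS values. The log2 difference was 0.16 (SE 0.04), with an adjusted p of 0.183 by edgeR and 0.0240 by DESeq2. The authors' deposited table gives a log2 fold change of 0.16 and an adjusted p of 0.0199 for it. Meningeal fibroblast marker sums had a median of 83.0 CPM in doxorubicin and 363 CPM in PBS hippocampi of ApoE3 rats, and endothelial marker sums (4 of 6 measured) a median of 110 CPM and 183 CPM. All 8 meningeal and all 4 endothelial markers had negative log2 differences, with medians of -1.98 and -0.67, and edgeR called none of them. Over the 32 hippocampal libraries, Gria1 deviations had r = -0.60 with the meningeal sum. They had r = 0.80 with summed excitatory neuron markers and -0.71 with summed striatal neuron markers. Gria2, Gria3, Grin1 and Grin2b had r = -0.66, -0.67, -0.67 and -0.64 with the meningeal sum. With the meningeal score as a covariate, the Gria1 difference was 0.10 (SE 0.05, adjusted p = 0.912). The meningeal sums themselves differed by treatment, so this fit cannot separate them from it, and the cause was not tested. In ApoE4 hippocampus the Gria1 difference was 0.03 (SE 0.06), and the genotype by doxorubicin term was -0.12 (SE 0.08, adjusted p = 0.720), so no difference between genotypes was shown.

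In ApoE4 cortex, 4 subunits had an unadjusted p under 0.05 with adjusted p of 0.362 to 0.409. Grin3a had 11.2, 12.6 and 13.7 CPM in doxorubicin rats and 8.78, 10.1 and 12.1 CPM in PBS rats, a log2 difference of 0.26 (SE 0.08). Grin2a had 86.4, 116 and 128 CPM in doxorubicin rats and 64.5, 92.4 and 113 CPM in PBS rats, a log2 difference of 0.28 (SE 0.08). Gria1 had 146, 173 and 190 CPM in doxorubicin rats and 142, 157 and 167 CPM in PBS rats, a log2 difference of 0.15 (SE 0.05). Grin2b had 90.6, 106 and 119 CPM in doxorubicin rats and 76.8, 91.4 and 112 CPM in PBS rats, a log2 difference of 0.19 (SE 0.07). All 4 pairs of groups overlapped, with doxorubicin above the PBS median in 8 of 8 libraries for Grin3a and 7 of 8 for Grin2a. Meningeal fibroblast markers summed to 74.1 to 472 CPM in doxorubicin and 126 to 402 CPM in PBS cortices of ApoE4 rats, and choroid plexus markers to 5.45 to 84.5 CPM and 9.47 to 675 CPM. Inhibitory neuron marker sums averaged 727 CPM in doxorubicin and 661 CPM in PBS cortices of ApoE4 rats. Over the 32 cortical libraries, deviations of Grin3a, Grin2a, Gria1 and Grin2b had r = -0.36, -0.30, -0.13 and -0.26 with the meningeal sum. They had r = -0.49, -0.59, -0.81 and -0.12 with the mitochondrial share of counts. With the inhibitory neuron sum they had r = 0.37, 0.66, 0.58 and 0.18. The meningeal and choroid plexus scores were used as covariates in fits among the 24 alternatives for each subunit. Over those alternatives the log2 difference was 0.22 to 0.30 for Grin3a and 0.20 to 0.35 for Grin2a. For Gria1 it was 0.13 to 0.19 and for Grin2b 0.15 to 0.24, and 0 alternatives called any of the 4. The cause of these differences was not tested.

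**Figure D4:**
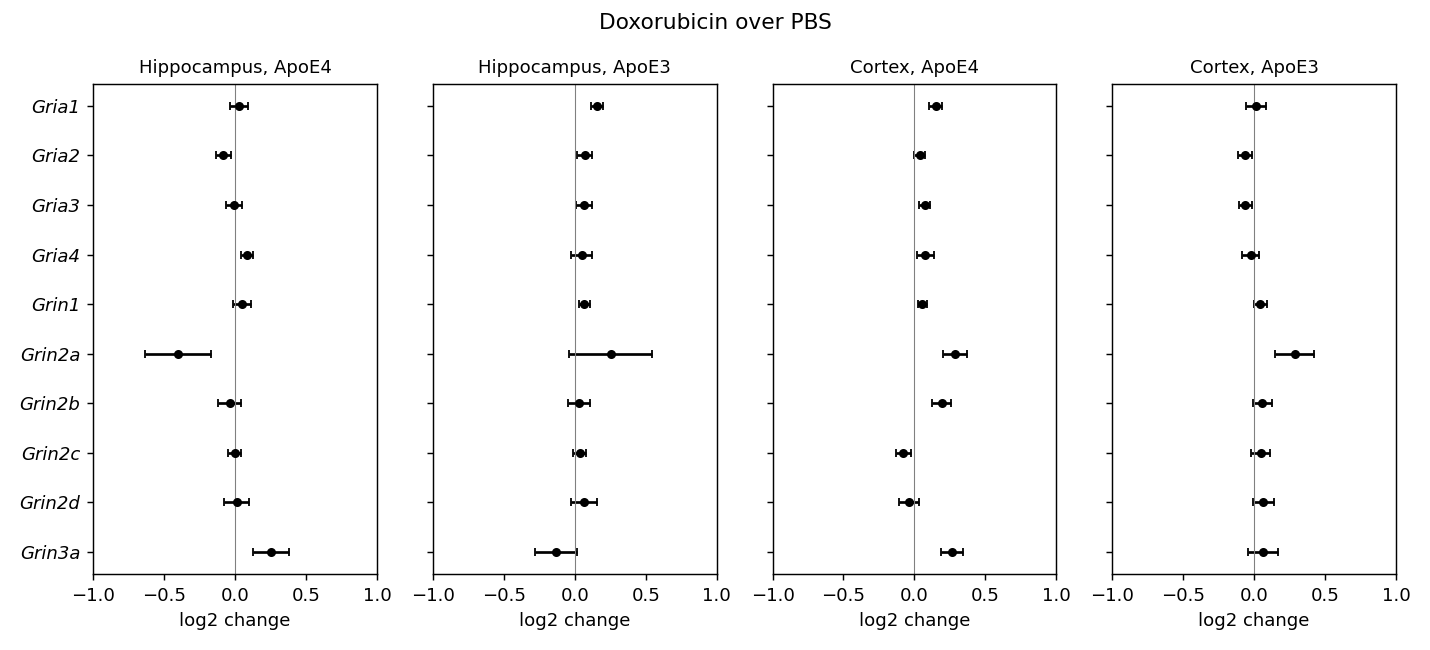
Log2 change of each subunit, doxorubicin over PBS, in hippocampus and cortex of ApoE4 and ApoE3 rats (8 libraries per group). Points are edgeR estimates and bars are 1 SE. No point passed an adjusted p of 0.05, and Grin2a in hippocampus has the widest bars, with SE of 0.23 and 0.29.

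The interaction terms gave no called subunit for genotype by doxorubicin (0.0% of all genes called in both regions) or region by doxorubicin (0.0% in both genotypes). DESeq2 likewise called 0 of the 10 subunits in these 4 terms. Unadjusted p under 0.05 was reached by 1 subunit each in hippocampus (Gria2) and cortex (Gria3) for genotype by doxorubicin, by 1 in ApoE4 rats (Grin2a) and by 0 in ApoE3 rats for region by doxorubicin. The shares of all genes at that unadjusted p were 8.18% and 5.45% for genotype by doxorubicin in hippocampus and cortex, and 3.59% and 8.00% for region by doxorubicin in ApoE4 and ApoE3 rats, so 1 of 10 was near the background.

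Genotype was compared in PBS rats. In hippocampus edgeR called 0 of 10 subunits, against 3.81% of 15416 genes, and DESeq2 called 0. At an unadjusted p under 0.05 there was 1 subunit, Grin2b, against 16.0% of all genes. In cortex it called 1 of 10, Grin2a, against 18.2% of 15315 genes. Cortical Grin2a had 64.5, 92.4 and 113 CPM in ApoE4 and 39.7, 66.3 and 93.5 CPM in ApoE3 PBS rats, and 7 of 8 ApoE4 libraries were above the ApoE3 median. The log2 difference was 0.42 (SE 0.13, adjusted p = 0.0180), a fold of 1.34.

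By sex, the groups were unlike in overlap. In male PBS cortices Grin2a had 89.0, 90.0, 94.8 and 110.5 CPM in ApoE4 and 39.7, 55.5, 58.1 and 59.9 CPM in ApoE3 rats, with no overlap. In female PBS cortices it had 64.5, 83.2, 95.3 and 113 CPM in ApoE4 and 72.7, 89.0, 90.4 and 93.5 CPM in ApoE3 rats, with full overlap. Fitted in each sex alone, an alternative added after the values were seen, the log2 difference was 0.05 (SE 0.14, adjusted p = 0.868) in females and 0.85 (SE 0.10, adjusted p = 3.04e-06) in males. Whether the genotype difference itself differed between sexes was not tested. Gria2 was at -0.12 (SE 0.04) with an adjusted p of 0.0512 by edgeR and 0.0431 by DESeq2, and it passed in edgeR without ApoE3 rat 37 or 56 or ApoE4 rat 4 or 26, at -0.13 to -0.12. Meningeal fibroblast markers summed to 126 to 402 CPM in ApoE4 and 101 to 206 CPM in ApoE3 PBS cortices, 6 of 8 of them called higher. Also called were 4 of 7 astrocyte and 3 of 4 endothelial markers, higher in ApoE4, and 4 of 6 microglial markers, lower in ApoE4. The part of these markers in the Grin2a difference was not tested.

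Of 23 postsynaptic density genes in PBS cortex, 7 were higher and 2 lower in ApoE4 rats, against 18.2% of all genes called in either direction. Shank2, a scaffold protein gene, was higher by 0.34 (SE 0.06) and Dlg2, which encodes the scaffold PSD-93, by 0.30 (SE 0.05). Nrgn, the calmodulin-binding neurogranin gene, was lower by -0.22 (SE 0.05). The list's median was 0.05, against -0.01 over all genes.

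The sex by doxorubicin term asked whether the doxorubicin difference was the same in females and males, and Grin2a in ApoE3 cortex passed it. In ApoE3 female cortices it had 58.2, 72.5, 79.7 and 84.6 CPM with doxorubicin and 72.7, 89.0, 90.4 and 93.5 CPM with PBS. In ApoE3 male cortices it had 81.9, 91.4, 95.3 and 100.2 CPM with doxorubicin and 39.7, 55.5, 58.1 and 59.9 CPM with PBS. All 4 treated males lay above all 4 PBS males, while the female groups overlapped. The Grin2a call by genotype in PBS cortex, this term and the fits in males alone share these 4 PBS males. These results are thus not independent. The female minus male difference in log2 change was -1.01 (SE 0.16, adjusted p = 0.00160). Grin2a was the only 1 of 10 subunits called in this term, against 2.57% of 14775 genes, and 6 of 10 had an unadjusted p under 0.05, against 19.5% of all genes. DESeq2 also called Gria2 (-0.23, adjusted p = 0.0263), as did edgeR without PBS rat 56 (-0.28, adjusted p = 0.0377).

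Within each sex alone, again added after the values were seen, the ApoE3 log2 difference of cortical Grin2a was -0.22 (SE 0.10, adjusted p = 0.252) in females and 0.79 (SE 0.10, adjusted p = 0.000923) in males. Striatal neuron markers (6 genes) moved in the same libraries, with sums of 212 to 262 CPM in doxorubicin and 282 to 355 CPM in PBS females, and 310 to 556 CPM in doxorubicin and 233 to 377 CPM in PBS males. Endothelial markers summed to 159 to 209 CPM in doxorubicin and 119 to 137 CPM in PBS females, without overlap, and to 103 to 159 CPM in doxorubicin and 107 to 133 CPM in PBS males, with overlap. Astrocyte marker sums averaged 2512 CPM in doxorubicin and 2202 CPM in PBS females, and 2089 CPM in doxorubicin and 2209 CPM in PBS males. None of the 4 endothelial and 7 astrocyte markers was called by edgeR in the sex by doxorubicin term, and their part in the Grin2a term was not tested. Of the 6 striatal markers, 5 were called in the same direction in the sex by doxorubicin term, against 2.57% of all genes. With the striatal marker score as a covariate, the Grin2a term was -1.43 (SE 0.23, adjusted p = 0.0116). The striatal sums followed the same sex by treatment pattern, so this fit cannot tell the striatal markers apart from the term. In ApoE4 cortex the striatal sums averaged 210 CPM in doxorubicin and 252 CPM in PBS females, and 399 and 305 CPM in males. The Grin2a term there was 0.05 (SE 0.17, adjusted p = 0.987 by edgeR). Grin2a deviations had r = 0.25 with the striatal sum over the 32 cortical libraries. Cortical neuron marker sums in ApoE3 cortex averaged 518 CPM in doxorubicin and 570 CPM in PBS females, and 556 and 526 CPM in males. Their part in the Grin2a term was not tested. In the sex by doxorubicin term of ApoE3 cortex, 4 of 7 measured inhibitory neuron markers were also called lower. Nptx2, an AMPA receptor clustering protein gene, was at -0.99 (SE 0.11) there. In the other 3 sex by doxorubicin comparisons 0 of 10 subunits were called by edgeR or DESeq2, against 0.0% of genes in hippocampus of both genotypes and 0.00674% in ApoE4 cortex. At an unadjusted p under 0.05 there was 1 subunit, Grin3a, in ApoE4 hippocampus and 0 in ApoE3 hippocampus and ApoE4 cortex, against 3.49%, 4.45% and 5.84% of all genes.

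**Figure D5:**
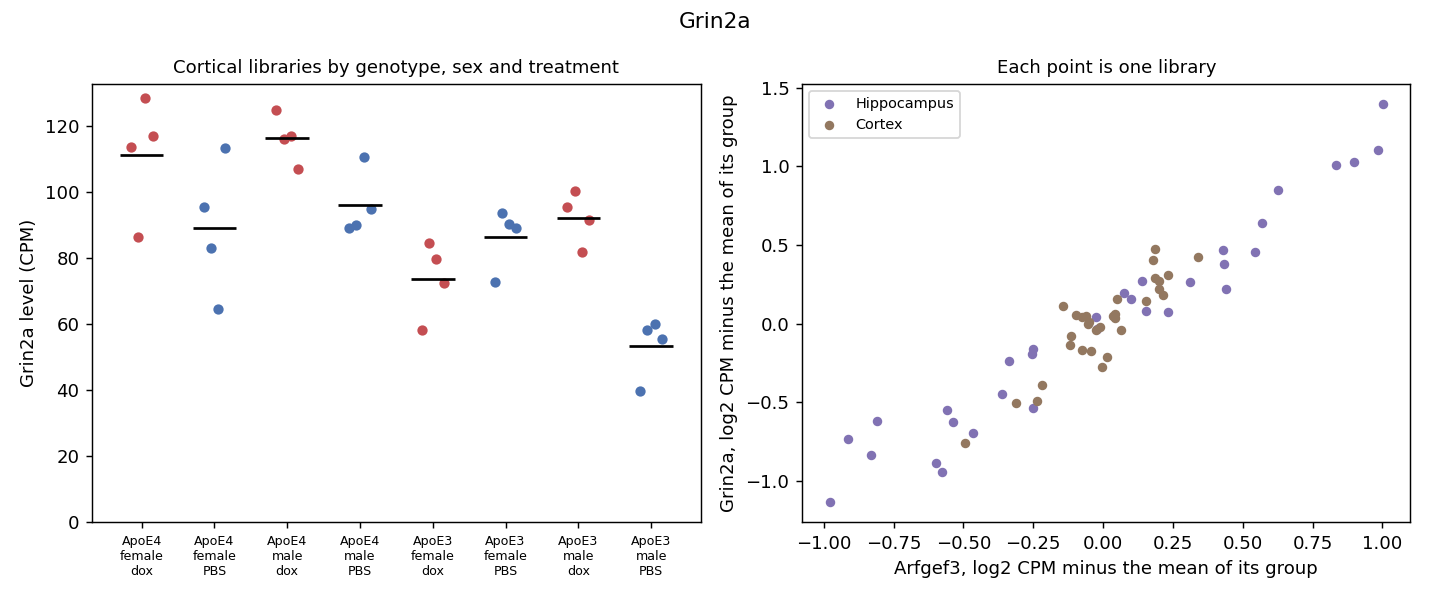
Left, Grin2a level (CPM, axis from 0) in the 32 cortical libraries by genotype, sex and treatment, doxorubicin red and PBS blue, with lines at the mean of 4 rats. Right, Grin2a against Arfgef3 in 64 libraries, each as log2 CPM minus the mean of its group. ApoE3 PBS males sit lowest at 39.7 to 59.9 CPM, and the right panel runs along one diagonal in both regions.

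Grin2a also varied most between rats of the same group. Each group pools the sexes, so this spread includes differences between females and males, which were not tested. Mean hippocampal Grin2a was 44.0 CPM in female and 20.0 CPM in male ApoE4 doxorubicin rats. It was 49.3 and 31.2 CPM in ApoE4 PBS, 52.5 and 34.5 CPM in ApoE3 doxorubicin and 42.8 and 29.7 CPM in ApoE3 PBS rats. In hippocampus Grin2a values ran between 14.9 and 102 CPM over the 32 libraries, and its within-group coefficient of variation was 40.4% to 58.8%. The other 9 subunits had within-group coefficients of 4.20% to 26.2% there. Its within-group SD of log2 CPM in hippocampus was 0.70, larger than that of 98.7% of 12069 genes, and in cortex 0.29, larger than that of 95.4%. In ApoE4 hippocampus the doxorubicin libraries had 17.0, 18.2, 19.4, 20.7, 25.2, 36.6, 57.7 and 60.8 CPM, and the PBS libraries 20.2, 23.1, 31.7, 38.6, 39.6, 42.9, 58.3 and 67.5 CPM. Hippocampal and cortical deviations of the same rat correlated at r = -0.16 over 32 rats.

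With group means taken off, the genes most like Grin2a over 64 libraries were Arfgef3 (r = 0.96), Kcnq3 (r = 0.95) and Cacna1e (r = 0.95), out of 12067 genes with a symbol and an average log2 CPM of at least 2. In hippocampus, Grin2a deviations had r = -0.05 with the library total, 0.23 with the mitochondrial share, -0.52 with summed excitatory neuron markers and 0.50 with summed astrocyte markers. In cortex they had r = -0.59 with the mitochondrial share and 0.76 with summed cortical neuron markers. Libraries share rats and sequencing, and these correlations are descriptions.

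Most of the other subunits followed different genes. Gria1 was most like Sez6l (r = 0.87), Prkce (r = 0.84) and Sez6l2 (r = 0.82), and Grin1 most like Sez6l2 (r = 0.91), Dnm1 (r = 0.89) and Mapk8ip3 (r = 0.88). Gria2 was most like Kcnt2 (r = 0.84), Gria3 like Gria2 (r = 0.81) and Grin2b like Gabrb1 (r = 0.78). Grin2c was most like Ttyh1 (r = 0.68), Grin2d like Sdc3 (r = 0.57) and Grin3a like Kidins220 (r = 0.64). Among the members, Gria1 and Grin1 had r = 0.81 and Gria2 and Gria3 r = 0.81, while Grin2a and Grin1 had r = -0.23.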

How the data were processed

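Total RNA from hippocampus and cortex had been made into NEBNext Ultra II libraries, per the labels' protocols. The submitters' processing notes name STAR 2.5.2b and DESeq2. The deposited files hold whole-number counts per gene for 64 libraries and, per comparison, the authors' log2 fold changes, p-values and normalized signal per library. Genome build, annotation and use of strand are not given in the sources used here. The 92 spike-in rows were left out of library sizes, and 0 columns of libraries were unmapped.

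Groups came from the labels. The members and gene lists were chosen with earlier results of these data known. All 10 members are named. From other lists at most the 4 genes of smallest p among those passing are named, and genes named as similar to a member are among its 3 highest by Pearson r; 1 result is not reported here. Counts were tested with edgeR 4.0.16 in R 4.3.3: TMM factors, filterByExpr, quasi-likelihood F test, sex as covariate, 16 libraries per doxorubicin, region and sex by doxorubicin comparison and 32 for the others, and a Benjamini-Hochberg adjusted p of 0.05 over all genes. The SE is the log2 change over the root of F. Log2 CPM used a prior count of 1. Ratios of counts had exact two-sided permutation tests in scipy 1.17.1. DESeq2 1.42.0, other scalings, filters, covariates and left-out libraries were alternatives.

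The fit was tested on simulated counts for the doxorubicin comparisons. Of 50 genes changed by a log2 of 0.25, 24% to 52% were recovered, and of 50 changed by 0.5, 54% to 80%. Differences of the size seen for the subunits with doxorubicin could therefore be missed. Hippocampus and cortex came from the same rats, which gives the pairing: deviations of the same rat over all genes had a median r of 0.14 (range -0.16 to 0.32, 32 rats), and the rat was added as a block in an alternative. The labels name separate rats but no batches. The main region and region by doxorubicin tests, and the permutation tests of ratios by region, treated both libraries of a rat as separate. Their p-values mix spread between and within rats. In the other main tests p-values measure the spread between rats.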

Additional observations from a re-analysis of the deposited data

Results flagged for a closer look

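In ApoE3 hippocampus with doxorubicin, 1 library (rat 65) had Grin2a at 102 CPM, against 20.0 to 46.4 CPM in the other 7, and 1 (rat 66) had Gria4 at 98.7 CPM, against 62.9 to 79.1 CPM. Each lay further from its nearest neighbour than Dixon's 95% limit allows. Of 80 groups of 8 looked at, chance alone would give flags in about 1 in 20, and these flags were no more frequent than that. Each group pools the sexes, which the limit does not take into account. Grin2a in ApoE3 cortex was flagged because its doxorubicin difference differed between females and males, by a log2 change of -1.01, by the interaction term.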

How the results depend on the processing

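Of 334 log2 changes of called subunits recomputed under alternatives, 333 kept their direction and stayed past the threshold and 0 reversed. The exception was Grin2a by genotype in PBS cortex, at 0.05 in female rats alone. With the rat as replicate block, the region comparisons called the same 7 (ApoE4) and 6 (ApoE3) subunits, and the Gria1/Gria2 differences of 1.65 (ApoE4) and 1.71 (ApoE3) missed the adjusted threshold. There 8 rats allow no smaller p.

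Subunits called by region in ApoE3 rats became 7, with Grin2d added, for library size alone and for 3 left-out libraries. For doxorubicin, the number called became 1 in ApoE3 hippocampus (DESeq2) and 1 in ApoE3 cortex (males alone). For genotype in PBS cortex it became 2 (DESeq2, library size alone), 0 (females alone) and 1 to 2 with a library left out. For sex by doxorubicin in ApoE3 cortex it became 2 (DESeq2) and 1 to 2 with a library left out.

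Counts over all genes moved more. DESeq2 called 153 for doxorubicin in ApoE3 hippocampus, 81 in ApoE3 cortex and 33 in ApoE4 cortex, 3 and 1 for genotype by doxorubicin in hippocampus and cortex, 129 for region by doxorubicin in ApoE3 rats, and for sex by doxorubicin 1 in ApoE4 hippocampus, 762 in ApoE3 cortex and 19 in ApoE4 cortex. With no filter on low counts the calls were 7 and 4 for doxorubicin in ApoE3 and ApoE4 cortex, 40 for region by doxorubicin in ApoE3 rats, and 631 and 16 for sex by doxorubicin in ApoE3 and ApoE4 cortex. Library size alone gave 8 for doxorubicin in ApoE3 cortex and 0 for sex by doxorubicin in ApoE4 cortex. A choroid plexus covariate gave 1 for doxorubicin in ApoE3 hippocampus and 13 in ApoE4 cortex. Doxorubicin in ApoE3 cortex gave 3 with a meningeal covariate, 10 with all 32 libraries, 65 in males and 137 in females. Genotype in PBS cortex gave 636 in females alone, and region by doxorubicin in ApoE3 rats 9 with the replicate block. Sex by doxorubicin in ApoE3 cortex gave 108 with a striatal covariate and 84 without rats 72 and 58. Leaving out single libraries gave 0 to 2 and 0 to 1 for doxorubicin in ApoE3 and ApoE4 cortex and 125 (without doxorubicin rat 65) to 699 (without PBS rat 56) for sex by doxorubicin in ApoE3 cortex. The cause was not tested.

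Single-sex fits, the striatal covariate and the fit without rats 72 and 58 for the sex term were chosen after seeing the data. Transcript lengths were not used here, so the planned length alternative was not run. Depth limits Grin3a most, at 72 to 223 counts a library.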
